A study of Mus musculus with 24 samples.

Results

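Dorsal root ganglia of uninjured mice of the strain labelled CAST were set against ganglia of uninjured mice labelled DBA. The comparison takes the 4 libraries titled CAST naive and the 4 titled DBA naive, 8 of the 24 libraries of the series, and reads every gene of the table: 27046 of 38215 genes held enough reads to be tested. The other libraries used here are 4 of naive C57 ganglia, the strain behind the reference genome, and 4 each of CAST and DBA ganglia taken 5 days after the sciatic nerve was crushed. The labels name the strains only in these short forms (the series title adds CAST/Ei), give no age or sex, and do not say whether a library holds the ganglia of 1 animal or of several. The series' design text calls the 4 libraries of a group biological replicates. Naive is the label's word, although the treatment text describes crush and sham surgery, so whether these animals had sham surgery is not known. No transgene or drug is named for any group.

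Sensory neurons that link skin, muscle and viscera to the spinal cord keep their cell bodies in dorsal root ganglia. Among these neurons are nociceptors that sense damage, itch and temperature, low-threshold mechanoreceptors that sense touch, and proprioceptors that sense muscle stretch. Each cell body is wrapped by satellite glia, its axon is sheathed by Schwann cells, and macrophages, mast cells, vessels and connective tissue lie between them. CAST/Ei is an inbred strain from wild mice of the subspecies Mus musculus castaneus, and it differs from the C57BL/6J reference at far more DNA positions than the laboratory strain DBA does.

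The depth estimated from the files was 85.57 to 114.3 in units of 1e6 reads over the 8 libraries, of which 63.3 to 63.8% fell in genes. Correlations of log levels across genes were at least 0.9961 between CAST libraries and at least 0.9935 between DBA libraries, and 0.9749 to 0.9784 between the strains. Genes read from the Y chromosome had at least 292 reads in every library and Xist at most 19, so the 8 libraries did not differ by sex. The 16 pan-neuronal markers summed to 1758 to 1829 FPKM in CAST and 1828 to 2005 FPKM in DBA, and the ranges met.

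The third DBA library stood apart. Its skeletal muscle markers summed to 54.14 FPKM, against 3.023 to 9.429 in the other DBA libraries and 2.76 to 11.19 in CAST. Its macrophage markers summed to 16.13 FPKM, against 8.907 to 9.3 in the other DBA libraries, and its mast cell markers to 6.169 against 2.687 to 3.755. Counts that lean on those cell types are therefore also given without it.

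Levels are FPKM, fragments scaled to the length of the gene and the depth of the library. Judged from low values, the length here spans introns as well as exons, so a level can be compared between libraries but not between genes. A gene was called where limma's test on log2(FPKM + 1), fitted across all 24 libraries, gave a Benjamini-Hochberg adjusted p under 0.05. Differences below are CAST minus DBA on that log2 scale with their standard error (SE), which understates the change of low genes, and ratios are of mean FPKM. In whole ganglia, fewer cells of a type and less RNA per cell cannot be told apart. Reads of 3 strains were placed on the C57BL/6J genome, so a difference in RNA and a difference in how well reads align cannot be told apart for a single gene.

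Of the 27046 genes, 11965 (44.2%) were called. In CAST 6417 (23.7%) were higher and 5548 (20.5%) lower, and the median difference over all genes was 0.0012. The 4 CAST and 4 DBA values did not overlap for 12832 genes (47.4%). On the log2(FPKM + 1) scale 363 called genes differed by at least 1, 208 of them higher and 155 lower in CAST; low genes with a large ratio do not reach that mark. Protein-coding genes were called in 48.1% of cases, with 4464 higher and 4179 lower. Processed pseudogenes, the intronless copies of other genes, were called in 34.4% of cases, with 550 higher and 266 lower.

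**Figure D1:**
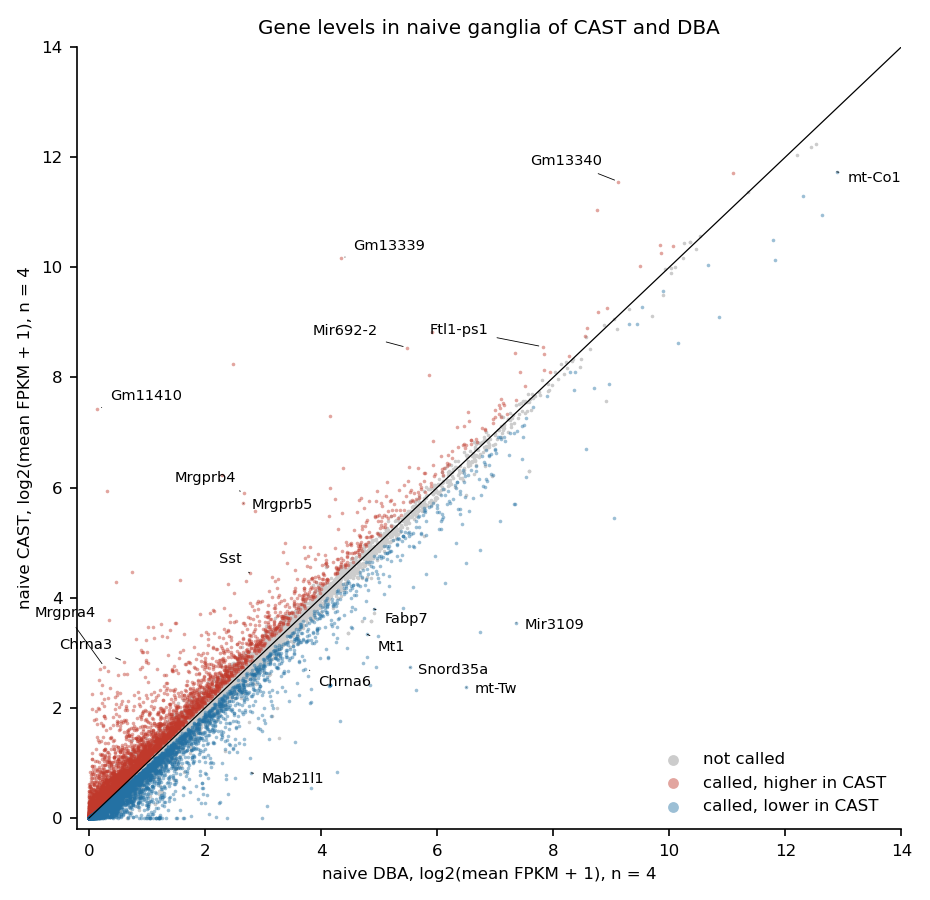
Each point is 1 of the 27046 genes, with the mean level of 4 naive DBA libraries on the horizontal axis and of 4 naive CAST libraries on the vertical axis, both as log2(mean FPKM + 1). Red points were called higher and blue points lower in CAST, grey points were not called, and the line marks equal levels; Mrgprb4, Mrgprb5 and Chrna3 lie above it and Gm11410 lies near the vertical axis.

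The largest rises of protein-coding genes on the log2 scale were in Mas-related G protein-coupled receptors, a rodent-expanded family that marks subsets of unmyelinated sensory neurons, several of them for itch or for stroking of hairy skin. Mrgprb4 marks a small set of such touch neurons, and Mrgprb5 is its close relative. Both lie on the minus strand of chromosome 7 in mm10, Mrgprb4 at chr7:48198070-48199288 and Mrgprb5 at chr7:48167983-48169019, within a cluster of related receptors. The annotated transcripts share 84.3% of 1034 aligned bases. The first 140 bases of the window that opens 250 bases before each RefSeq start are shown because these neighbours differed alike. They end short of the start itself. They come from RefSeq on GRCm38.p6 and are the C57BL/6J sequence, not that of CAST or DBA. Both read 5′ to 3′ on the minus strand, with the 30 positions that differ between the genes in capitals.
Mrgprb4, chr7:48199289-48199428: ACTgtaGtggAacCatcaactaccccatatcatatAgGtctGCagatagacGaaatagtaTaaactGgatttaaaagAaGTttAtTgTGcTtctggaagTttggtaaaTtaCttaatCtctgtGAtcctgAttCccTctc
Mrgprb5, chr7:48169096-48169235: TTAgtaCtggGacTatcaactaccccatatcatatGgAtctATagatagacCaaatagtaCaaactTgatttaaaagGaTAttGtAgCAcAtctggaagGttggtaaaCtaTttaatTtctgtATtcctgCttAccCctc
These stretches are 78.6% identical, counted position by position without gaps, a measure unlike the gapped alignment of the transcripts.

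Mrgprb4 read 58.8, 58.7, 60.3 and 58.4 FPKM in the CAST libraries and 5.41, 5.12, 5.84 and 5.23 in the DBA libraries. All 4 CAST values were above every DBA value, by 10.9-fold in the mean, a difference of 3.23 (SE 0.14, adjusted p = 1.16e-13, limma). Mrgprb5 read 45.1, 48.9, 52.1 and 60.3 FPKM in CAST and 4.76, 5.75, 5.31 and 5.53 in DBA, a 9.67-fold ratio and a difference of 3.05 (SE 0.15). The groups did not overlap here either, and the 4 CAST values of Mrgprb5 spread more widely than those of Mrgprb4. Naive C57 ganglia sat near DBA, at 8.03 to 10.2 FPKM for Mrgprb4 and 5.88 to 9.48 for Mrgprb5.

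The rest of the family divided. Of 15 Mas-related receptors tested from the list, 8 were higher and 4 lower in CAST (80.0% called, against 44.2% of all genes). The median difference was 0.15 against 0.001 over all genes. Mrgpra4 read 5.48, 5.9, 5.9 and 5.5 FPKM in CAST and 0.197, 0.226, 0.194 and 0.199 in DBA, 27.9-fold apart. Mrgpra3, the receptor for the itch compound chloroquine, read 2.18 to 2.36 FPKM in CAST and 1.21 to 1.38 in DBA, 1.75-fold higher. Mrgprx1 rose with it, by 0.48. Mrgpra6, which the list does not hold, read 0.257 to 0.342 FPKM in CAST and 0 to 0.0153 in DBA. Its mean in DBA came to 10.4 estimated reads.

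Mrgpra2a and Mrgpra2b went the other way. Mrgpra2a read 0.0328, 0.0522, 0.0633 and 0.048 FPKM in CAST and 0.463, 0.514, 0.425 and 0.496 in DBA, 9.67-fold lower in CAST (difference -0.49, SE 0.04). Mrgpra2b read 0.149 to 0.205 FPKM in CAST and 0.944 to 1.11 in DBA, 5.64-fold lower. Their transcripts are 99.8% identical, so reads of one may be counted for the other and the values of the pair are uncertain. Mrgprd, the marker of the most numerous nonpeptidergic nociceptors, was not called: it read 19.9, 20.9, 19.8 and 21.8 FPKM in CAST and 20.1, 19.9, 19 and 20.5 in DBA, and the groups overlapped.

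**Figure D2:**
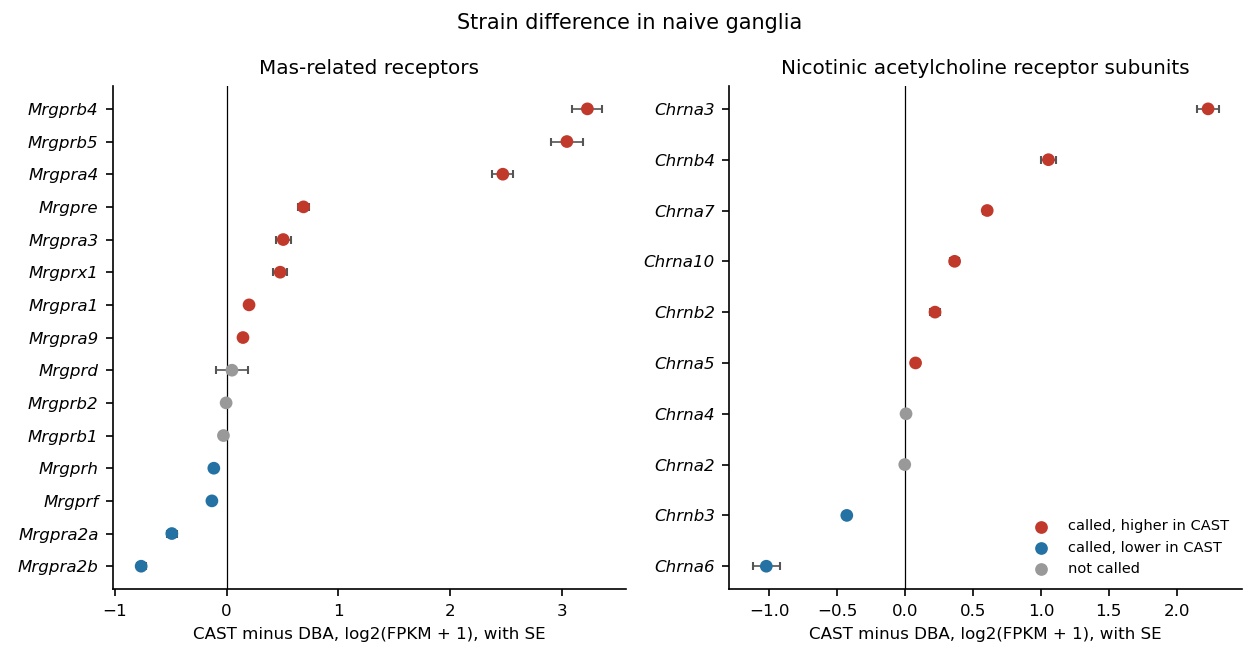
Points give the difference of naive CAST minus naive DBA on the log2(FPKM + 1) scale, with whiskers of 1 SE, for the Mas-related receptors (left) and the nicotinic receptor subunits (right). Red points were called higher, blue points lower in CAST and grey points were not called; Mrgprb4 at 3.23, Mrgprb5 at 3.05 and Chrna3 at 2.23 are furthest to the right, with Mrgpra4 at 2.47.

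Nicotinic acetylcholine receptors, ion channels built of several subunits that open when acetylcholine binds, differed by gene cluster. The subunits Chrna5, Chrna3 and Chrnb4 lie side by side at chr9:54980880-55048779, and all were higher in CAST. Chrna3 read 6.31, 6.63, 6 and 5.73 FPKM in CAST and 0.529, 0.448, 0.708 and 0.426 in DBA, an 11.7-fold ratio (difference 2.23, SE 0.08, adjusted p = 7.65e-15, limma). Chrnb4, which pairs with Chrna3 in autonomic ganglia, read 1.84, 1.83, 1.6 and 1.61 FPKM in CAST and 0.315, 0.316, 0.354 and 0.252 in DBA, 5.57-fold apart. Neither gene's groups overlapped. Chrna5, the accessory subunit, read 0.0578 to 0.0768 FPKM in CAST and 0.00984 to 0.0163 in DBA.

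A second pair of neighbours, Chrnb3 and Chrna6 at chr8:27368711-27413944, was lower in CAST. Chrna6 read 5.23, 5.59, 5.73 and 5.58 FPKM in CAST and 11.3, 12.6, 12.5 and 12.8 in DBA, 2.22-fold lower (difference -1.02, SE 0.10, adjusted p = 4.83e-08). Chrnb3 read 0.196 to 0.238 FPKM in CAST and 0.625 to 0.663 in DBA, 2.91-fold lower. Here DBA was the strain away from C57, whose Chrna6 read 3.94 to 4.54 FPKM. Among the other subunits Chrna7 was 4.56-fold higher in CAST, and Chrnb2, the common neuronal beta subunit, was 1.18-fold higher with values of 9.22 to 9.75 against 7.72 to 8.43 FPKM.

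Over the list of acetylcholine, monoamine and opioid receptors, 15 of 37 tested members were higher and 14 lower in CAST (78.4% called, against 44.2% of all genes). The list's median difference was -0.002. Htr3a, the serotonin-gated cation channel, read 4.16, 4.03, 4.22 and 4.55 FPKM in CAST and 6.88, 6.39, 6.72 and 6.75 in DBA, with no overlap and a difference of -0.55. Drd1, a dopamine receptor, was higher (0.44), while the serotonin receptors Htr1a (-0.50) and Htr1b (-0.30) and the adrenergic receptor Adra2c (-0.35) were lower.

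Genes of itch and pain neurons included both higher and lower members. Of 20 nociceptor genes, 10 were higher, 3 lower and 7 not called (65.0% called, against 44.2% of all genes, of which 23.7% were higher and 20.5% lower), with a median of 0.10 against 0.001 over all genes. The most changed were the peptides of one small itch population, in which somatostatin (Sst) and natriuretic peptide B (Nppb) are known to be made together. Sst read 18.5, 20.8, 21.8 and 22.2 FPKM in CAST and 4.63, 5.81, 5.43 and 7.43 in DBA, 3.58-fold higher (difference 1.69, SE 0.17, adjusted p = 8.71e-08, limma). Nppb read 11.6, 12.8, 14.9 and 11.8 FPKM in CAST and 3.05, 3.17, 3.62 and 3.83 in DBA, 3.74-fold higher (difference 1.64, SE 0.10). Neither peptide's values overlapped between the strains.

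Trpa1, the channel for mustard oil and other irritants, read 2.87, 2.9, 2.69 and 2.53 FPKM in CAST and 0.923, 0.931, 0.846 and 0.884 in DBA, 3.07-fold higher. Scn10a, the nociceptor sodium channel Nav1.8, read 11.6 to 12 FPKM in CAST and 8.31 to 8.89 in DBA. The nociceptor factor Prdm12 (0.37) also rose. Calca, the gene of the peptide CGRP, read 94.7 to 114 FPKM in CAST and 84.8 to 93.8 in DBA (difference 0.23, adjusted p = 0.0107), a call that was lost with upper-quartile scaling.

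Against these, the substance P gene Tac1 was lower in CAST, at 16.8, 15.5, 15.2 and 12.7 FPKM against 21.7, 21.4, 20.8 and 23.5 in DBA (difference -0.51). The heat and capsaicin channel Trpv1 (-0.22) and the ATP-gated channel P2rx3 (-0.13) were also lower. So the list did not move as a block.

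Of 15 neuropeptide genes tested, 3 were higher and 3 lower. Penk, which encodes the enkephalin opioids, read 4.32, 4.26, 3.95 and 3.7 FPKM in CAST and 1.72, 1.85, 1.92 and 1.76 in DBA, 2.24-fold higher. Cartpt, the CART peptide gene, read 4.19, 3.83, 3.9 and 3.8 FPKM in CAST and 9.76, 8.38, 10.6 and 8.95 in DBA, 2.4-fold lower (difference -1.08, SE 0.12). Adcyap1, which encodes PACAP, was 1.57-fold lower. Groups did not overlap for any of these peptides.

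Ion channel lists were called near or above the share of all genes. Of 23 sodium and calcium channel genes, 8 were higher and 3 lower. Scn2b, a sodium channel beta subunit, was the largest of them, at 3.73, 4.06, 4.07 and 3.64 FPKM in CAST and 1.2, 1.18, 1.17 and 1.17 in DBA (difference 1.16, SE 0.05). Of 47 potassium channel genes, 12 were higher and 17 lower, or 11 lower without the fourth DBA library. Kcng4, a modifier subunit, was the most changed, at 0.0649 to 0.0747 FPKM in CAST and 0.577 to 0.729 in DBA, 9.24-fold lower. Of 18 TRP, Piezo and acid-sensing channel genes, 7 were higher and 5 lower, and the acid-sensing channels Asic1 (0.41) and Asic3 (0.28) were among the higher.

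Genes of touch and position sense leaned little to either side, with 4 of 16 higher and 6 lower in CAST (62.5% called, against 44.2% of all genes). Kcns1, a potassium channel subunit, was higher (0.38), and Spp1 (-0.93), Th (-0.32) and the neurofilament Nefh (-0.18) were lower. Among 15 sensory identity factors 5 were higher and 5 lower (66.7% called). The POU factors split: Pou4f1, made by nearly all sensory neurons, was higher by 0.14, while Pou4f2 (-0.71) and Pou4f3 (-0.77) were lower.

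**Figure D3:**
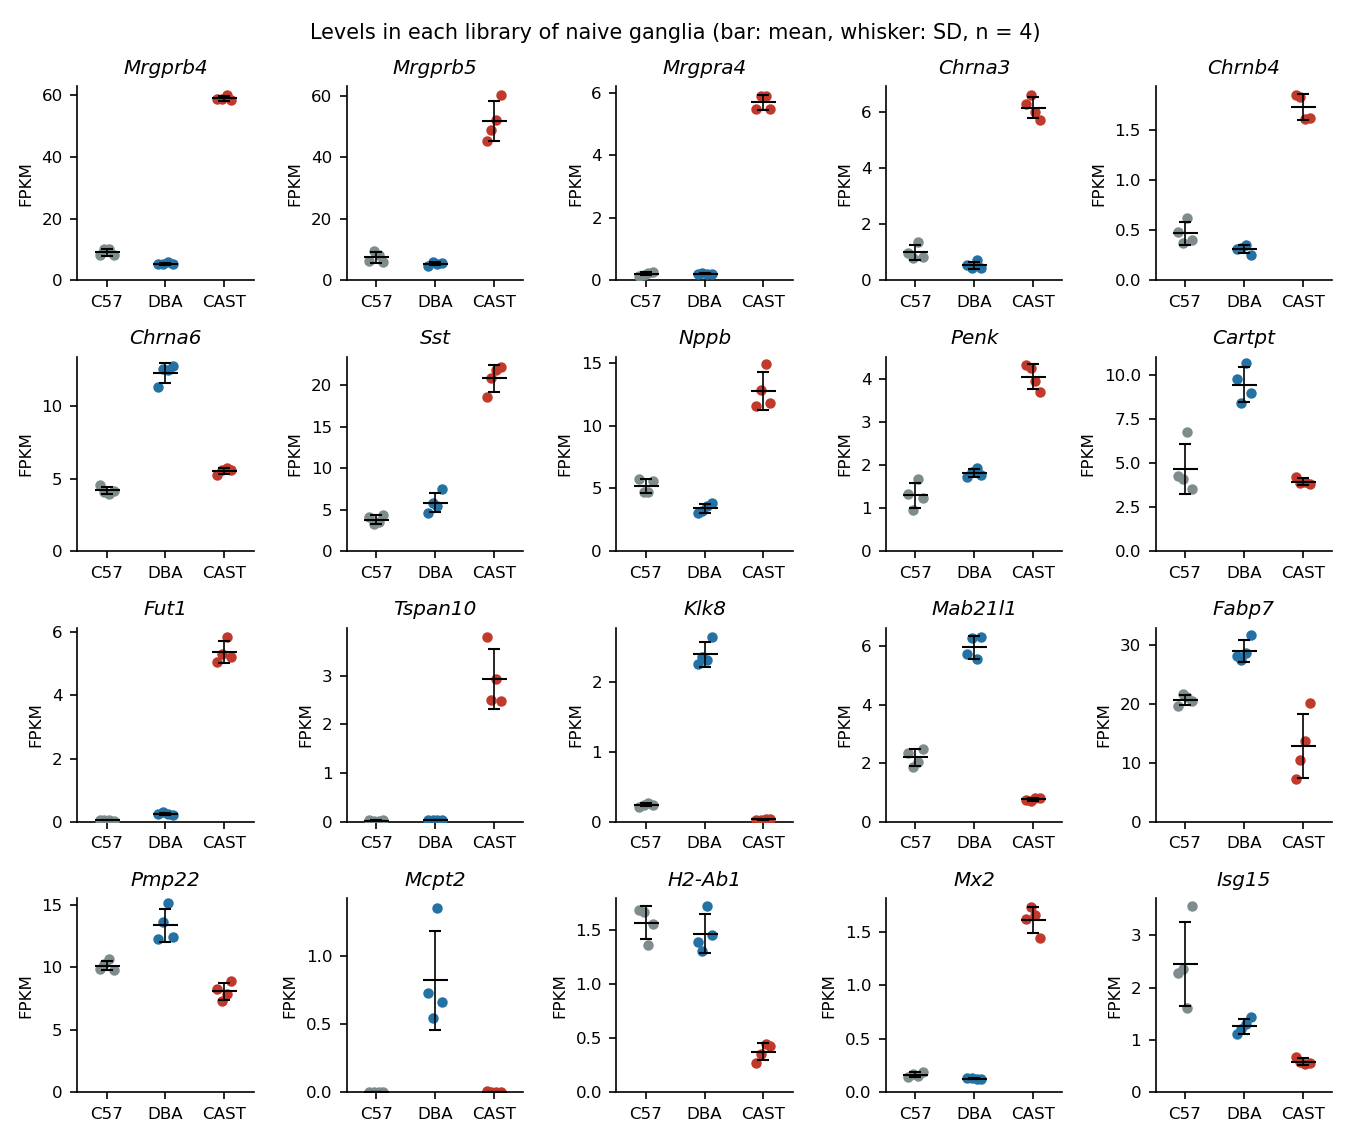
Each panel shows FPKM of a gene in the 4 naive libraries of C57 (grey), DBA (blue) and CAST (red), with the mean as a bar and the SD as whiskers on axes that start at 0. The 4 CAST values of Mrgprb4 lie at 58.4 to 60.3, far above both other strains, whereas DBA is the strain that stands apart for Chrna6 and Mcpt2.

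Outside the receptor families, the largest rises included genes with few reads in DBA. Fut1, a fucosyltransferase that makes the H antigen on cell surface sugars, read 5.05, 5.31, 5.86 and 5.22 FPKM in CAST and 0.244, 0.304, 0.24 and 0.216 in DBA, 21.4-fold higher (difference 2.35, SE 0.06, adjusted p = 1.02e-16, limma). Tspan10, a tetraspanin, read 3.8, 2.49, 2.93 and 2.49 FPKM in CAST and 0.0295 to 0.0402 in DBA, 80.1-fold higher. In both cases naive C57 was as low as DBA or lower.

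Myo3a, an unconventional myosin known from hair cells, was 5.68-fold higher, with 7.69 to 9.65 FPKM in CAST and 1.46 to 1.6 in DBA. Its span, chr2:22227503-22618252, holds Gm13339, Gm13340 and Gm13341, nuclear copies of mitochondrial genes. Gm13340 was 5.4-fold higher in CAST, and what part of the Myo3a reads comes from these copies was not tested. Rsph1, a radial spoke protein of motile cilia, was 24-fold higher, and Tas1r1, a subunit of the umami taste receptor, 30.9-fold. The 4 CAST values of Tas1r1 ran from 2.08 to 4.19 FPKM, and every DBA value was below 0.1. Bglap, the bone protein osteocalcin, was 25.3-fold higher, with 3.78 to 4.85 FPKM in CAST. Its neighbour Bglap2 rose too (1.43).

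Some rises started from almost no reads. Sult3a1, a sulfotransferase, read 0.303 to 0.377 FPKM in CAST, a mean of 789 estimated reads, and 0 to 0.00122 in DBA, a mean of 1.75 reads. Lce1g, a skin barrier gene, read 0.527 to 0.991 FPKM against 0 to 0.0173, and Gsdma3, a gasdermin, 0.139 to 0.179 against 0.00186 to 0.00482. Ly6a, the surface antigen Sca-1, was well above the floor in both strains, at 12.5, 12.3, 11.6 and 11.9 FPKM in CAST and 2.44, 2.48, 3.41 and 2.84 in DBA. Ccl21b, a lymphatic chemokine with near-identical copies, was 4.32-fold higher, and here DBA was the low strain, since C57 read 6.02 to 7.87 FPKM.

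Among the falls, Mab21l1, a developmental gene of eye and neural tissue, read 0.751, 0.712, 0.8 and 0.797 FPKM in CAST and 5.72, 6.28, 5.54 and 6.31 in DBA, 7.79-fold lower (difference -1.98, SE 0.07). Klk8, the secreted protease neuropsin, read 0.0308, 0.021, 0.0319 and 0.0428 FPKM in CAST and 2.26, 2.36, 2.31 and 2.65 in DBA, 75.8-fold lower. C57 lay between them, at 0.215 to 0.273 FPKM for Klk8. The kinase gene Hipk4 was 13.4-fold lower, Eps8l3 9.72-fold, and Rgs5, a regulator of G protein signalling common in pericytes, 5.16-fold.

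Mt1, the metal-binding metallothionein, read 8.68, 10.3, 8.22 and 9.27 FPKM in CAST and 25.1, 24.5, 27.4 and 30.3 in DBA, 2.95-fold lower. Pcbd1, a cofactor recycling enzyme, was 3.28-fold lower and Mettl7a3 2.96-fold. Gapdh and Rpl36 were 3.43-fold and 2.49-fold lower, but both have many processed copies in the genome, and reads shared with copies make their values uncertain. The histone gene Hist1h4i, 7.21-fold lower, has close relatives too.

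For several genes DBA was the strain with the reads. Glp1r, the receptor of the gut hormone GLP-1, read 0.314 to 0.354 FPKM in DBA, a mean of 1274 estimated reads, and 0.00166 to 0.00287 in CAST and 0.000902 to 0.00241 in C57. Stab2, a scavenger receptor of sinusoidal endothelium, read 0.143 to 0.225 FPKM in DBA and 0.00335 to 0.00425 in CAST. S100a2, a calcium-binding protein of epithelia, was 14.4-fold lower in CAST than in DBA, and the pheromone receptor Vmn1r179 read 0.55 to 0.813 FPKM in DBA and was listed at 0 in 3 of the 4 CAST libraries. The 9 genes tested at chr1:173128049-173333750, mostly olfactory receptors such as Olfr1408 and Olfr218, were all lower in CAST. They include Ackr1, the red cell chemokine receptor, with 34.9 FPKM in CAST and 45.7 in DBA on average. The window is bounded by Olfr1408 and Ackr1, themselves lower. Its olfactory receptor genes were listed at 0 in the same CAST libraries. Olfr1408 and Olfr1407-ps1 had the same ratio (20.54-fold lower), as did Olfr218 and Olfr1404 (22.57-fold). Such genes may share reads, so the 9 genes are not separate readings of the strain difference.

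Schwann cells wrap axons in myelin, a stack of lipid-rich membrane held by a few proteins. Of 17 myelinating Schwann cell genes, 12 were lower and 1 higher in CAST (76.5% called, against 44.2% of all genes). The median was -0.17 against 0.001 over all genes. Pmp22, a membrane protein of compact myelin, read 8.28, 7.33, 7.84 and 8.89 FPKM in CAST and 12.3, 13.6, 15.1 and 12.4 in DBA (difference -0.66, SE 0.06, adjusted p = 1.99e-08, limma). The tight junction gene Cldn19 read 3.18 to 4.38 FPKM in CAST and 5.51 to 7.46 in DBA. The groups overlapped for neither gene. Prx (-0.33), Mbp (-0.41) and Mag (-0.17) were lower as well.

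The exception was Dhh, the hedgehog signal from Schwann cells to the nerve sheath, with 10.6 to 14.2 FPKM in CAST and 7.93 to 8.94 in DBA (difference 0.43). Without the third DBA library, 11 of the 17 were lower. Genes of nonmyelinating and repair Schwann cells divided, with 6 of 14 higher and 3 lower (64.3% called, against 44.2% of all genes). Among these the water channel Aqp1 (0.99) and Olig1 (0.51) were higher, and Cryab (-0.29) was lower.

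Satellite glia markers were lower for 5 of 16 genes and higher for 2 (43.8% called, near the 44.2% of all genes), with a median of -0.09. Fabp7, the brain-type fatty acid binding protein, read 7.32, 10.5, 13.7 and 20.1 FPKM in CAST and 28.2, 27.5, 28.7 and 31.8 in DBA (difference -1.19, SE 0.22). The groups did not overlap, though the 4 CAST values spread over more than the whole DBA range. The water channel Aqp4 (-0.29) was lower too.

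Cholesterol is made in large amounts by myelinating cells. Of 25 genes of its synthesis and uptake, 14 were lower and 3 higher in CAST (68.0% called, against 44.2% of all genes), with a median of -0.13. Hmgcs1, an early enzyme of the pathway, read 33, 34.4, 36.6 and 37.9 FPKM in CAST and 45.3, 45.9, 43.1 and 44.3 in DBA (difference -0.33), and its regulator Insig1 8.87 to 9.59 against 13.3 to 14.1. Idi1 (-0.41) and Fdps (-0.32) were lower. Lss, lanosterol synthase, went the other way, with 1.67, 1.76, 1.77 and 1.81 FPKM in CAST and 0.833, 0.852, 0.693 and 0.667 in DBA, 2.3-fold higher.

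Mast cells are resident immune cells packed with proteases and histamine. Of 10 mast cell genes, 8 were lower in CAST and 2 were not called, or 7 lower without the third DBA library. That is 80.0% called in the main fit, against 44.2% of all genes, of which 20.5% were lower. Cma1, a chymase, read 0.0359, 0.0545, 0.0589 and 0.0208 FPKM in CAST and 0.553, 0.415, 1.1 and 0.452 in DBA. Mcpt4 read 0.0111 to 0.0349 FPKM in CAST and 0.343 to 1.26 in DBA, and the tryptase Tpsb2 0.0741 to 0.209 against 0.66 to 1.69. In each case the highest value was that of the third DBA library, and the remaining 3 DBA values were still above every CAST value.

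Mcpt2 differed in another way. It read 0.734, 0.546, 1.36 and 0.664 FPKM in DBA and between 0 and 0.00765 in both CAST and C57, so it was nearly absent from 2 of the 3 strains. The marker Kit was only slightly lower (-0.06). The summed level of the 10 genes was 0.515 to 0.7267 FPKM in CAST and 2.687 to 6.169 in DBA.

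MHC class II genes, which present peptides to T helper cells, were lower in CAST for 9 of 13 members, with 4 not called. Their share called was 69.2%, against 44.2% of all genes. H2-Ab1 read 0.27, 0.357, 0.449 and 0.427 FPKM in CAST and 1.39, 1.3, 1.72 and 1.45 in DBA, 3.9-fold lower, and the invariant chain Cd74 0.317 to 0.546 against 1.22 to 1.69. H2-Ea-ps read 0.507 to 0.883 FPKM in CAST, 1.81 to 3.1 in DBA and 0.00234 to 0.0071 in C57, a strain known to lack this chain. Without the third DBA library, 8 of the 13 were lower. Of 20 macrophage genes 3 were lower, or 1 without the third DBA library, a smaller share than the 20.5% of all genes, and their summed level was 7.615 to 9.971 FPKM in CAST and 8.907 to 16.13 in DBA.

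MHC genes are also among the most variable between strains, and reads of divergent alleles may be lost. Of 27 class I genes tested, 5 were lower and 1 higher (22.2% called, below the 44.2% of all genes). H2-D1 (-0.68) was lower and H2-M3 (0.45) higher. Complement genes were lower in 9 of 27 cases and higher in 3 (44.4% called, near the 44.2% of all genes). C1qa (-0.41), C4b (-0.52) and the inhibitor Serping1 (-0.72) fell, and Cd55 (1.02), which protects cells from complement, rose.

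Fat cell genes were higher for 7 of 12 tested members, with 5 not called (58.3% called, against 44.2% of all genes). Cfd, the serum protease adipsin, read 8.66, 3.83, 3.17 and 7.22 FPKM in CAST and 0.65, 0.351, 2.13 and 0.433 in DBA, 6.42-fold higher (difference 1.83, SE 0.35, adjusted p = 0.000212). The highest DBA value was again that of the third library. Fabp4 read 2.78, 1.27, 1.19 and 3.08 FPKM in CAST and 0.503, 0.219, 1.48 and 0.241 in DBA, and its groups overlapped. Adipoq (0.10) and Plin1 (0.04), defining genes of fat cells, were higher as well, at no more than 0.143 and 0.071 FPKM in any of the 8 libraries. The list summed to 66.33 to 83.17 FPKM in CAST and 59.38 to 63.87 in DBA, and what part adhering fat has in the result was not tested.

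Genes of energy supply and protein synthesis were lower in CAST or not called, with 1 exception. Of 39 nuclear genes of oxidative phosphorylation, 18 were lower and 21 not called, with a median of -0.13. The share called was 46.2%, near the 44.2% of all genes, of which 20.5% were lower. Cox5b, a subunit of cytochrome oxidase, read 20.8, 17.9, 20.6 and 18.5 FPKM in CAST and 28.3, 30.1, 30.3 and 33.5 in DBA (difference -0.63, SE 0.06). The count of 18 lower genes rested in part on the fourth DBA library, without which 11 were lower. Of 35 ribosomal protein genes 14 were lower and 1 higher (42.9% called, near the 44.2% of all genes). Both groups of genes have many processed copies in the genome. Of 44 glutathione and detoxification genes 19 were lower and 14 higher (75.0% called, against 44.2% of all genes). Gstm5 (-0.75) and Aox1 (-0.57) fell, Gstm7 (0.66) and Gstm2 (0.59) rose.

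**Figure D4:**
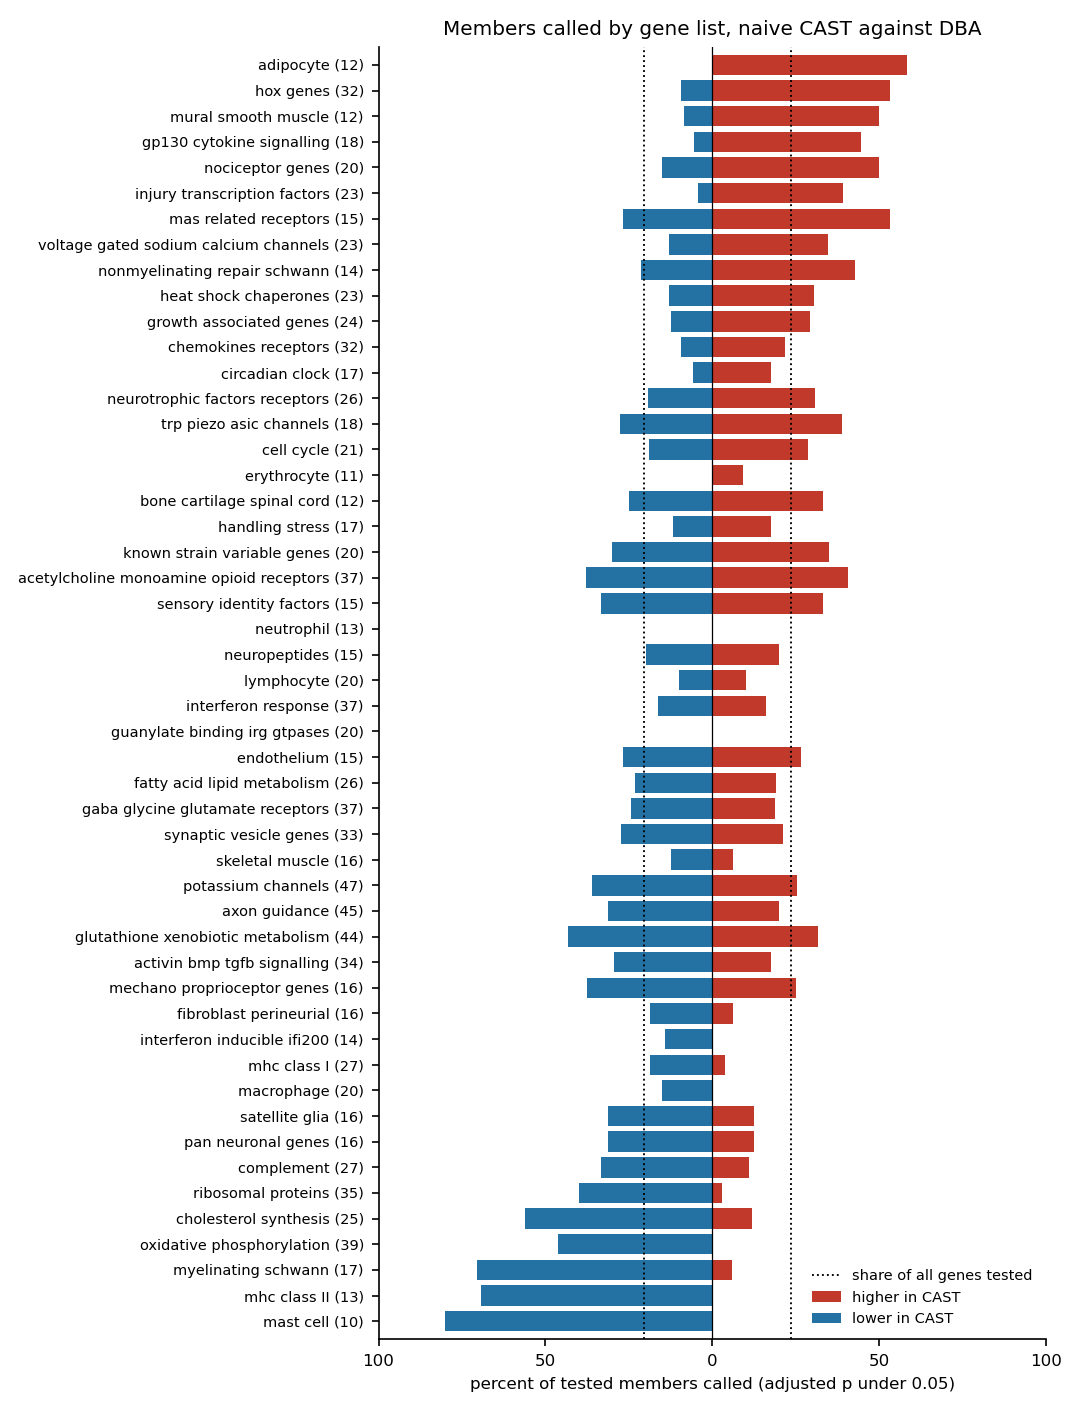
Bars give the percent of the tested members of each gene list that were called higher (red, to the right) and lower (blue, to the left) in naive CAST than in naive DBA ganglia, with the number tested in brackets. Dotted lines mark the same shares over all 27046 genes, 23.7% higher and 20.5% lower; the mast cell, MHC class II and myelinating Schwann lists reach far past the line on the left, and the adipocyte and Hox lists past that on the right.

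Hox genes, which keep a record of position along the body axis, were higher for 17 of 32 members and lower for 3, with a median of 0.12. Their share called was 62.5%, against 44.2% of all genes. The differences were small: Hoxb5 (0.48), Hoxc9 (0.32) and Hoxd1 (0.28) were among the higher, and Hoxc11 (-0.40) was lower. With upper-quartile scaling 12 were higher. The labels do not say from which spinal levels the ganglia were taken.

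Of 24 growth-associated genes, known to rise when axons regrow, 7 were higher and 3 lower (41.7% called, near the 44.2% of all genes). Sprr1a, a small proline-rich protein induced by nerve injury, read 4.04, 2.47, 1.47 and 1.79 FPKM in naive CAST and 0.784, 0.632, 0.421 and 0.393 in naive DBA, 4.38-fold higher (difference 1.10, SE 0.17). The groups did not overlap, and the CAST values differed by more than 2-fold among themselves. The orphan receptor Gpr151 (0.76) and Lgals1 (0.42) were higher, and Tuba1a (-0.58) and the small heat shock protein Hspb1 (-0.63) were lower.

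Of 23 injury-linked transcription factors, 9 were higher and 1 lower in CAST (43.5% called, near the 44.2% of all genes). Atf5 (0.51), Xbp1 (0.40), Sox11 (0.35) and Jun (0.23) were higher, and Fos (-0.24) was lower. Cytokines of the interleukin 6 family signal through the shared receptor gp130, whose gene is Il6st. Il6st read 13.4, 13.8, 13.1 and 13.9 FPKM in CAST and 8.35, 8.52, 8.14 and 7.98 in DBA, 1.65-fold higher (difference 0.66, SE 0.06). The ligand Cntf, made by Schwann cells, read 8.88, 5.27, 5.94 and 9.47 FPKM in CAST and 14.7, 15.4, 19 and 15.2 in DBA, 2.17-fold lower. Of the 18 genes of this pathway 8 were higher and Cntf alone was lower, and Lifr (0.22) and Jak1 (0.25) were among the higher. Of 26 neurotrophic factor genes 8 were higher and 5 lower, led by Gfra3 (0.75), the artemin receptor.

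Interferons switch on antiviral genes. Of 37 such genes 6 were higher and 6 lower in CAST (32.4% called, below the 44.2% of all genes). Mx2, an antiviral GTPase, read 1.61, 1.73, 1.65 and 1.44 FPKM in CAST and 0.13, 0.133, 0.124 and 0.124 in DBA, 12.6-fold higher (difference 1.21, SE 0.10). Oas1b, known for an inherited defect in many laboratory strains, was 4.17-fold higher, at 0.653 to 0.73 against 0.154 to 0.172 FPKM. Against these, Ifitm3 read 9.57 to 10.5 FPKM in CAST and 14.6 to 17.6 in DBA, and Bst2 (-0.42) and Ifit2 (-0.37) were lower. The fall of Isg15, from 1.11 to 1.45 FPKM in DBA to 0.542 to 0.675 in CAST, was close to the threshold (adjusted p = 0.0435) and was lost when any single library was left out. In a fit of the 8 naive libraries alone the list's counts were 13 higher and 15 lower.

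Interferon acts through a promoter element whose core was searched as GAAA, any 2 bases and GAAA again, on both strands, in the window from 250 bases before to 50 after each start in RefSeq (GRCm38.p6). It was found in 1079 of 27025 genes (4.0%) and in 16 of the 26 tested interferon genes that had a promoter in the table (61.5%): both of the 2 higher in CAST, 3 of 6 lower and 11 of 18 not called. Sites of members called in either direction are shown with the core in capitals, and these numbers are too small to compare the directions; this is reference sequence on the minus strand, and a match is letters only.
Isg15 (lower), chr4:156200867-156200892: aggaaaccGAAACAGAAAatagctct
Ifitm3 (lower), chr7:141010708-141010733: acttctgaGAAACCGAAActgccgca
Bst2 (lower), chr8:71537585-71537610: cattccagGAAAATGAAActgaaagg
Oas1c (higher), chr5:120812611-120812636: aatgggacTTTCAGTTTCcatttccc
Ddx58 (higher), chr4:40239806-40239831: tgaggcagTTTCGATTTCctatggcc
In Oas1c and Ddx58 the core reads on the opposite strand. The site shown for Isg15 begins 66 bases before the start, and its other site 78 bases before it. Those of Bst2 and Oas1c begin 130 and 114 bases before the start, and those of Ifitm3 and Ddx58 just after it.

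Genes known to vary between inbred strains served as a check of the labels. Of 20 tested, 7 were higher and 6 lower (65.0% called, against 44.2% of all genes). Alad, a heme enzyme carried in extra copies by DBA/2 mice, read 0.504, 0.478, 0.471 and 0.538 FPKM in CAST, 1.17, 1.14, 1.09 and 1.1 in DBA and 0.373 to 0.422 in C57. Gpnmb and Tyrp1, both mutant in DBA/2 lines, were 3.17-fold and 4.11-fold higher in CAST. Entpd4 was also higher, at 7.63 to 8.21 against 4.81 to 4.93 FPKM, Glo1 lower at 5.47 to 5.65 against 6.09 to 6.72, and Fscn2, an actin bundler of photoreceptors and hair cells, 9.84-fold higher.

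The largest rises of all genes were in nuclear copies of mitochondrial genes. Pieces of mitochondrial DNA inserted in the chromosomes stay near-identical to the mitochondrial genes they came from. Of 9 tested genes sharing at least 100 words of 16 bases with a mitochondrial gene, 8 were higher in CAST and 1 was not called, and the 6 largest rises in the whole table were among them. Gm11410, a copy of mt-Cytb, read 199, 182, 164 and 143 FPKM in CAST and 0.209, 0.0662, 0.0307 and 0.123 in DBA (difference 7.28, SE 0.11). The mitochondrial gene mt-Cytb itself was not called, with 2206 to 3008 FPKM in CAST and 2575 to 2714 in DBA.

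The same 100 bases of the gene and its copy are shown, from the mm10 reference, plus strand, with the 9 differing positions in capitals. They are 91.0% identical, and only reads that cover a differing position can be told apart.
mt-Cytb, chrM:14666-14765: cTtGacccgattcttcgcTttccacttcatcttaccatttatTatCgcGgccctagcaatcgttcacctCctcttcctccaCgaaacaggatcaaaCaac
Gm11410, chr4:80004510-80004609: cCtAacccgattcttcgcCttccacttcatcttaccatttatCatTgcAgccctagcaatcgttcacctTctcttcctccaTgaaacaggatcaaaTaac
The reference mitochondrial sequence is that of C57BL/6J, and the CAST sequence was not used here.

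Gm13340, 97.6% identical to mt-Co1, read 3210, 3121, 3029 and 2677 FPKM in CAST and 514, 582, 583 and 551 in DBA. Cytochrome oxidase subunit mt-Co1 did the opposite, at 3593, 3591, 3418 and 3010 FPKM in CAST and 7110, 7646, 7712 and 7826 in DBA (difference -1.16). Summed with its copies, mt-Co1 took 8797 to 10520 reads per 1e6 in CAST, 11780 to 12940 in DBA and 9536 to 11080 in C57. The gap between CAST and DBA was far smaller than that of the gene alone. It also shrank for mt-Co2, mt-Nd5 and, slightly, mt-Nd6. For mt-Nd2 the copy opened a gap: the gene took 905 to 1173 in CAST and 985 to 1042 in DBA. The mt-Nd2 sum took 1399 to 1822 and 995 to 1052. Reads that fit a gene and its copy may enter such sums more than once. Over the mitochondrial chromosome 14 of 36 genes tested were lower and 1 higher in CAST (41.7% called, near the 44.2% of all genes). Of those lower, 9 were transfer RNA entries, and 4 of the 13 protein-coding genes were lower. The transfer RNA mt-Tw was the most changed, at 1.85 to 5.75 FPKM against 80.1 to 98.8 (difference -4.20).

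Ferritin light chain, the iron store protein Ftl1, showed the same pattern of gene against copies. Ftl1 read 17.6, 17.9, 17 and 18.1 FPKM in CAST and 32.7, 34.9, 36 and 37 in DBA, 1.99-fold lower, while its copy Ftl1-ps1, 99.6% identical, read 379, 372, 364 and 387 against 213, 216, 240 and 233. Together Ftl1 and 6 copies took 3227 to 3419 reads per 1e6 in CAST, 1894 to 2131 in DBA and 1725 to 2389 in C57. The sum was thus higher in every CAST library than in any of the 8 others. Most of it was Ftl1-ps1, with a mean of 304440 estimated reads in CAST and 169620 in DBA, so the sum largely follows that entry. A read that fits several of these genes may enter the sum more than once.

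The letters of the miRNA miR-692 stand inside these ferritin sequences, which is why they are shown. The mature form is printed from RefSeq (GRCm38.p6) with its seed, bases 2 to 8, in capitals, and Mir692-1 (chr17:6895259-6895279), Mir692-2 (chr4:125504805-125504825) and Mir692-3 (chr13:74407121-74407141) hold the same letters. Mir3109, the most reduced miRNA entry, is shown with both arms for contrast, because its letters match no other annotated transcript.
miR-692: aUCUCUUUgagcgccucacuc
miR-3109-5p: aAUGGAUGcgaugguucccaugcu
miR-3109-3p: uAGGGCCAucucauccagaua
The miR-692 letters, as DNA, were found in transcripts of 16 genes, of which 2 are protein-coding, 5 are processed pseudogenes and 9 are miRNA entries. Of the 14 tested, 12 were higher and 2 lower in CAST.

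Mir692-2 read 374, 381, 354 and 378 FPKM in CAST and 38, 44.8, 45.6 and 46.8 in DBA (difference 3.06, SE 0.09), and Mir692-3 and Mir692-1 differed by 2.90 and 2.75. The entry Gm22133, which lies within Ftl1 itself, fell from 486 to 596 FPKM in DBA to 38.6 to 47.7 in CAST. The ferritin gene and its entry were thus both lower, and the copies and their entries both higher. These are total RNA libraries, and the reads cannot tell a mature miRNA from a fragment of the longer transcript. Mir3109 read 11.8, 11.2, 10.5 and 9.1 FPKM in CAST and 173, 176, 140 and 166 in DBA, 15.3-fold lower, and the small nucleolar RNA Snord35a was 8.01-fold lower.

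Dynein light chains showed copies that moved together. Dynlt1a, Dynlt1b, Dynlt1c and Dynlt1f, subunits of the motor that carries cargo back along axons, lie at chr17:6306340-6655900 and have transcripts that are 99.2 to 99.3% identical. Dynlt1b read 11.8, 11.9, 12 and 11.8 FPKM in CAST and 4.27, 4.38, 4.45 and 4.46 in DBA, 2.7-fold higher. The other members were 3.19-fold (Dynlt1a), 2.61-fold (Dynlt1c) and 3.09-fold (Dynlt1f) higher. How many copies each strain carries was not analysed here.

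Injured ganglia of the same strains, which share no library with the naive ones, gave a second reading of the strain difference. In them 13022 genes (48.1%) were called. Of the naive calls 8405 were called in the same direction after crush, which is 70.2% of the naive and 64.5% of the injured calls, and 295 were called in the opposite direction. Of the 363 genes past 1 on the log2 scale, 319 were called in the same direction. The strain difference itself changed with crush for 4225 genes (15.6%), 2646 of them among the naive calls.

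**Figure D5:**
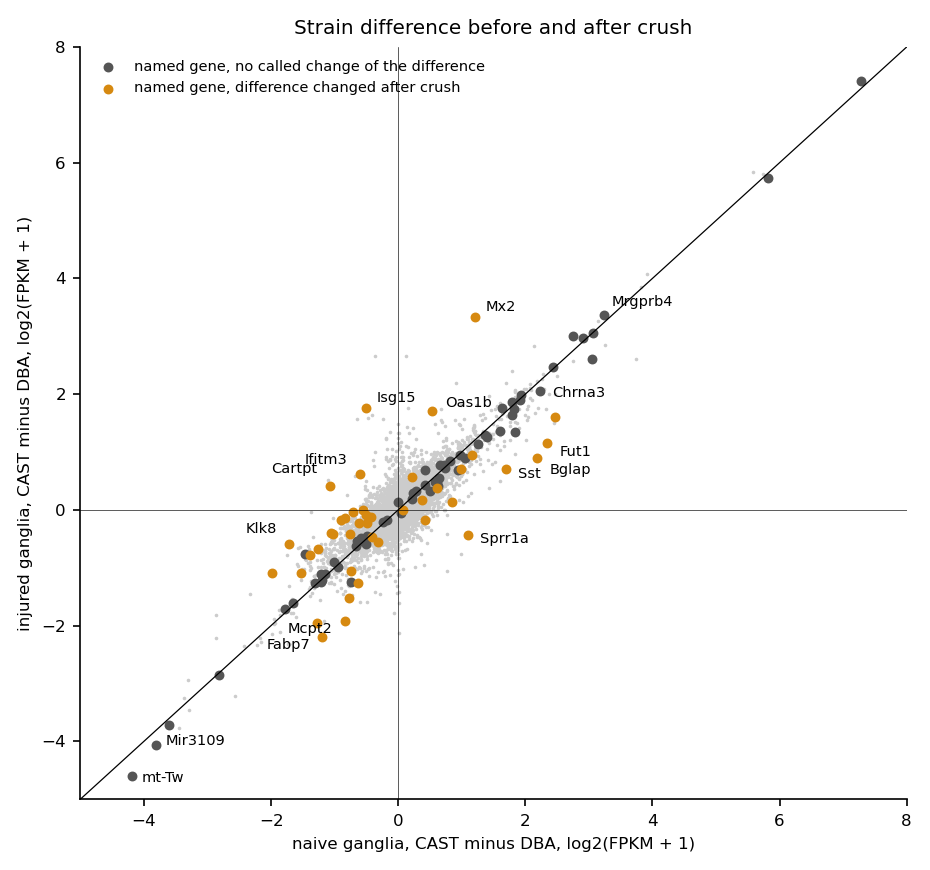
Each grey point is a tested gene, with the CAST minus DBA difference in naive ganglia on the horizontal axis and in injured ganglia on the vertical axis, both on the log2(FPKM + 1) scale; the diagonal marks equal differences. Larger points are the genes named in the text, orange where the difference changed with crush; Mx2 and Isg15 lie above the diagonal, and Sprr1a, Fut1 and Bglap below it.

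Mrgprb4 and Chrna3 kept their differences after crush, at 3.37 and 2.05, and the change was not called for either. The difference of Sst was 0.70 after crush and that of Fut1 1.15, and both changes were called. Cartpt turned over: it was lower in naive CAST (-1.08) and higher in injured CAST (0.42), a change of 1.49 (adjusted p = 1.58e-06, limma). Sprr1a, higher in naive CAST by 1.10, stood at -0.43 after crush (adjusted p = 0.0505), a change of -1.52.

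Among interferon genes, Mx2 went from 1.21 to 3.33 and Oas1b from 0.53 to 1.71, and Isg15 (from -0.51 to 1.76) and Ifitm3 (from -0.60 to 0.62) changed sign. H2-Ab1 went from -0.84 to -0.14 and Cd74 from -0.71 to -0.04, neither called after crush. Mast cell proteases kept their direction with larger differences, Cma1 from -0.63 to -1.26 and Tpsb2 from -0.77 to -1.52. Pmp22 stayed at -0.63.

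Naive C57 ganglia placed each strain. CAST against C57 gave 11892 called genes (44.0%) and DBA against C57 gave 5769 (21.3%); these comparisons share libraries with each other and with the one described here, so they are set side by side only. CAST stood apart for Mrgprb4 (2.58 from C57, with DBA at -0.65), Fut1 (2.59 and 0.25), Rsph1 (1.82 and 0.00), Mx2 (1.16 and -0.05) and Hipk4 (-1.77 and -0.12). DBA stood apart for Glp1r (0.00 in CAST and 0.41 in DBA), Chrna6 (0.34 and 1.36), S100a2 (0.01 and 1.23) and Ccl21b (0.00 and -1.61). Mab21l1 lay on both sides, at -0.85 in CAST and 1.13 in DBA.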

How the data were processed

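Total RNA of dorsal root ganglia was sequenced in 24 libraries of 6 groups. The authors deposited FPKM for 38215 genes. Reads were aligned with STAR 2.3.0 to mm10, per the submitters' processing notes. No source used here gives the counting tool, annotation, strand setting or treatment of multi-mapping reads. The near-equal values of mt-Nd4l and its copy Gm10222 point to reads counted at more than 1 place. A gene span was known for 36345 genes (95.1%), and reads were estimated as FPKM times span times a depth recovered from low values. Of values worth 0.5 to 100 reads, 67.2 to 67.9% came within 0.05 of a whole read (10% by chance), too few for a count test. Whether the files used that span was not checked gene by gene, so estimated reads and read sums are approximate.

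Genes with at least 10 estimated reads in 4 libraries (FPKM of 0.1 where no span was known) were kept, and 11169 were removed. limma 3.58.1 (R 4.3.3, trend and robust, statmod 1.5.0) was fitted to log2(FPKM + 1) in all 24 libraries with 6 group means, with Benjamini-Hochberg adjustment over 27046 genes and a threshold of 0.05; the script was tested on simulated data. Tables, sequences and figures used Python 3.11.15, pandas 2.3.3, Biopython 1.88 and matplotlib 3.10.9. The labels do not say that the 4 libraries of a group came from separate animals, so p-values measure the spread between these libraries.

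Genes were named by 3 rules: the 15 largest log2 changes each way among called genes with a mean of at least 1 FPKM and no overlap, leaving out clone-named genes and pseudogenes; the 10 largest ratios each way with at least 100 estimated reads in each library of the higher group; and members of gene lists. The members and lists were chosen with earlier results of these data known. The pass of the rule over protein-coding genes alone, and the rule for mitochondrial copies, were chosen after values were seen. Alternatives covered the pseudocount, scaling, filter, libraries fitted, replicate block and single libraries left out.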

Additional observations from a re-analysis of the deposited data

Results flagged for a closer look

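In 11 genes 1 library lay far from the other 3 of its group, which chance gives in about 1 of 20 groups. With many genes looked at, such cases are expected by chance, so the count is not read as an excess. In DBA these were the first library for Chrna6 (11.29 FPKM), the second for Mrgpra4 (0.2265) and the third for Cfd (2.131), H2-Ea-ps (3.095), Cd74 (1.686) and Cntf (19.01). In CAST they were the first library for Rsph1 (2.805) and Vmn1r179 (0.02966), and the third for Ifi27l2b (1.149), Mir692-1 (48.87) and Fscn2 (0.9662). Of these, 4 are values of the third DBA library, which also held the most muscle, mast cell and macrophage RNA.

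For 42 of the 104 genes recomputed under every alternative the strain difference changed with crush (interaction term, limma). Over all genes tested the share was 15.6%. Many of the 104 were named for large naive differences, so the shares are not comparable. Values are the difference of CAST minus DBA after crush less that before, on the log2 scale. Receptors and channels moved by -0.873 (Mrgpra4), -0.212 (Mrgpra6), 0.257 (Mrgpra2a), 0.356 (Mrgpra2b), -0.075 (Chrna5), -0.228 (Chrna7), 0.608 (Chrna6), 0.3 (Chrnb3), 0.544 (Htr3a), -0.276 (Trpa1), -0.221 (Scn2b), 0.387 (Kcng4) and -0.051 (Glp1r). Peptide genes moved by -0.993 (Sst), 0.429 (Tac1), -0.711 (Penk) and 1.494 (Cartpt). Glial and lipid genes moved by -0.605 (Dhh), -1.001 (Fabp7) and -0.223 (Hmgcs1).

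Immune genes moved by 0.703 (H2-Ab1), 0.714 (H2-Ea-ps), 0.664 (Cd74), -0.632 (Cma1), -0.749 (Tpsb2) and -1.072 (Mcpt2). Of the interferon genes, 4 moved by 2.122 (Mx2), 1.174 (Oas1b), 2.269 (Isg15) and 1.216 (Ifitm3). The growth and cytokine genes Sprr1a and Cntf moved by -1.524 and 0.658. The remaining genes moved by -1.197 (Fut1), -1.284 (Bglap), 0.354 (Gsdma3), 0.881 (Mab21l1), 1.128 (Klk8), 0.433 (Eps8l3), 0.6 (Hsbp1l1), 0.582 (Rgs5), -0.326 (Vmn1r179) and -0.678 (Mettl7a3).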

How the results depend on the processing

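Of 1761 values of 104 genes recomputed under the alternatives, 1751 kept their direction and side of the threshold, 10 kept the direction only, and no direction turned; Calca lost its call with upper-quartile scaling, and Isg15 with no filter on low values and without any single library. The count of called genes fell to 6014 (3326 higher, 2688 lower) with a filter at 0.5 FPKM, where fewer genes were tested, with 4262 called in both naive and injured ganglia and 1687 whose strain difference changed with crush. With a minimum difference of 1 on the log2(FPKM + 1) scale, which leaves out low genes with larger ratios, it was 363 (208 higher, 155 lower). With each library left out in turn it was 11046 to 11186 (5827 to 6045 higher, 5039 to 5249 lower), 7893 to 8036 in both states and 3763 to 3928 changed with crush, and 9567 calls (80.0%) held in every such fit. Upper-quartile scaling moved the share of calls higher in CAST from 53.6% to 44.9%. Deviations of same-numbered libraries of the strains correlated weakly (r 0.012 to 0.107, against -0.097 to 0.037 for other pairs). These values are too small to settle whether the numbers pair the libraries. With a replicate block 12160 genes were called (6512 higher, 5648 lower), 8520 in both states and 4309 changed with crush. The fits of 8 or 12 libraries hold no injured ganglia and give no such counts. Interferon genes lower in CAST numbered 3 to 4 with a library left out and 15 with the naive CAST and DBA libraries alone; the cause was not tested. FPKM files state no depth, so intervals for single counts are not given.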

Other observations

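Some gene groups were not described above. Of 17 clock genes 3 were higher and 1 lower in CAST (23.5% called, below the 44.2% of all genes). Bhlhe41, a repressor in the clock, stood out with 5.98 FPKM in CAST and 3.19 in DBA on average (difference 0.73). Of 32 chemokine and receptor genes 7 were higher and 3 lower (31.2% called, also below that share). The lymphoid chemokines Ccl21a (0.66) and Ccl19 (0.55) were among the higher. Of 12 mural and smooth muscle genes 6 were higher and 1 lower (58.3% called, above the share of all genes, of which 23.7% were higher). Lymphocyte genes were higher in 2 and lower in 2 of 20 cases, below the share over all genes.

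The Mas-related cluster at chr7:47185707-48558086 held calls in both directions. Of its Mas-related receptor genes 8 were higher in CAST, 3 were lower, and Mrgprb1 and Mrgprb2, the latter known as a mast cell receptor, were not called. Among the mast cell protease relatives outside the list, Mcpt9, Cma2 and Tpsg1 were lower and Mcpt8 was not called. Among chromosomes the share of tested genes called ran from 39.7% on X to 47.5% on chromosome 14, leaving out Y.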
